A study of Hippophae rhamnoides with 3 samples.

Results

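Vitamin B6 synthesis in seabuckthorn (Hippophae rhamnoides) leaves was followed through 4 genes whose best hit in another species is named a pyridoxal or pyridoxine biosynthesis protein. They were taken by their identifiers from 7713 genes that the authors listed as differentially expressed in at least 1 of 3 comparisons. The libraries came from leaves of 30 days old plantlets grown at 28°C. One was freeze stressed at -10°C (FS), another cold stressed at 4°C (CS) and the last kept at 28°C (CON), for 6 hr each, with 1 library per condition. No genotype, clone or number of pooled plants is given in the sources used here. Leaf identity was visible in 22 chloroplast marker genes counted in every library, which summed to 3049 tags per 1000000 clean tags (TPM) in FS, 2228 TPM in CS and 4287 TPM in CON. Of 27 listed chloroplast markers 14 were up and 5 down in FS over CON and 15 were up and 8 down in CS over CON. Of all listed genes 56.2% were up in FS over CON and 53.0% in CS over CON. A photosystem I apoprotein was the 1 marker at 0 in CON.

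Pyridoxal phosphate, the active form of vitamin B6, is the cofactor of aminotransferases, amino acid decarboxylases and many other enzymes. In plants the enzyme complex of PDX1 and PDX2 makes it from a pentose phosphate, a triose phosphate and the ammonia that PDX2 releases from glutamine. The vitamin also quenches singlet oxygen, and Arabidopsis plants short of PDX1 are sensitive to salt and strong light.

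DeepSAGE counts short tags, so a gene is seen through the CATG site nearest to the 3′ end of its transcript, and its count does not grow with transcript length. Of 30829 distinct tags that the authors listed, 6 matched one of the 4 genes perfectly and no other gene, 4 in the sense and 2 in the antisense direction. Gene counts hold sense tags only. The 6 tags are shown because the results turn on them, from the deposited tag tables, with capitals where the members of a pair differ.
Unigene47947_All, sense tag: catggaTgatgatgaagtCtt
Unigene34060_All, antisense tag: catggaCgatgatgaagtTtt
Unigene30764_All, antisense tag: catgTctCacTgcCtcaataa
Unigene34060_All, sense tag: catgCctAacCgcTtcaataa
Unigene30764_All, sense tag: catgggggatattagggttct
Unigene13335_All, sense tag: catgtatgagtgacacaattg
Counted from 1 at the 5′ end, the sense tag of Unigene47947_All and the antisense tag of Unigene34060_All differ by T7C and C19T and are alike at 19 of 21 bases. No other listed tag lay as near to that of Unigene47947_All. The antisense tag of Unigene30764_All and the sense tag of Unigene34060_All are alike at 17 of 21 bases, differing by T5C, C8A, T11C and C14T. Of all listed tags, 2 lay as near to the antisense tag of Unigene30764_All, that of Unigene34060_All included. In both pairs a sense tag of a gene thus resembled an antisense tag of another.

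By annotation the 4 genes were close but not equal in weight. Unigene47947_All had a putative pyridoxin biosynthesis protein PDX1 of Ricinus communis as best hit, with an E-value of 1.14e-124. Unigene30764_All and Unigene34060_All shared a pyridoxine biosynthesis protein of Lotus japonicus as best hit, with E-values of 2.66e-75 and 2.81e-67. These 3 genes carried the GO terms pyridoxine metabolic process, hyperosmotic response and response to hydroperoxide. Unigene13335_All, similar to a probable PDX1 of Vitis vinifera, had the weakest hit, 9.82e-11, and no GO term.

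By sense tags, the 2 more abundant PDX genes were lower in both stress libraries than in CON. The antisense tag of Unigene34060_All, more abundant than either in each library, is described below. Unigene30764_All, the most abundant of the 4 by the sense tags analysed, had 799 tags in FS, 731 in CS and 2094 in CON. Its level was 67.1 TPM in FS, 60.9 in CS and 181 in CON. The stress libraries lay close together, with exact Poisson 95% intervals of 62.5 to 71.9 in FS and 56.5 to 65.4 in CS, and CON lay far above both.

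The fall of Unigene30764_All was -1.57 on the log2 scale in CS over CON (exact 95% interval -1.70 to -1.45). In FS over CON it was -1.43 (interval -1.55 to -1.31). Between the stresses the log2 ratio of FS over CS was 0.14 with an interval that includes 0 (-0.0060 to 0.29), and the gene was not listed there. Such intervals compare 2 libraries and cover counting error only, since PCR copies are not independent molecules and no condition had a replicate. The summed leaf markers also had a lower level in both stress libraries, with a log2 ratio of -0.49 in FS over CON and -0.94 in CS over CON. Most listed markers were nevertheless up, 14 of 19 in FS over CON and 15 of 23 in CS over CON. Among all listed genes 56.2% and 53.0% were up there. Those up in FS over CON were photosystem I and II subunits such as protein D1 (Unigene10610_All, 919 tags in FS and 58 in CON). None of them had more than these 58 tags in CON. Those down included plastocyanin (2639 in FS and 12892 in CON) and a chlorophyll A/B binding protein (Unigene116240_All, 327 and 697). Photosystem I subunit PsaD (Unigene107233_All, 762 and 3020) was also down. The part of the leaf markers in the falls of the PDX genes was not tested. As in any bulk sample, fewer cells of a type and less RNA per cell cannot be told apart.

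**Figure D1:**
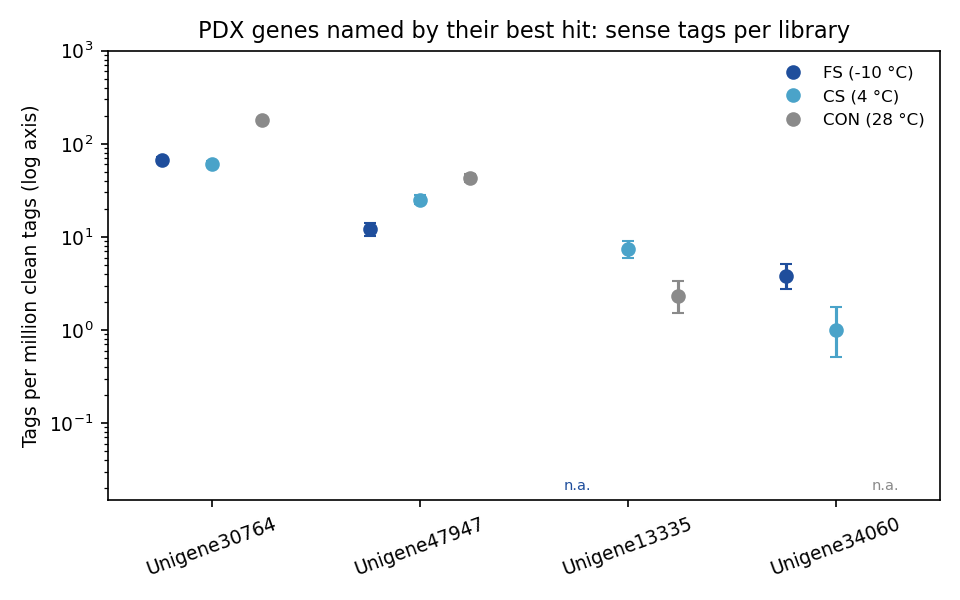
Sense tags in TPM (log axis) of the 4 PDX genes in the FS, CS and CON libraries, with exact Poisson 95% intervals; n.a. marks a count not analysed here. Unigene30764_All stands at 67.1 in FS, 60.9 in CS and 181 in CON, and Unigene47947_All at 12.1, 25.1 and 43.1 in the same order.

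Unigene47947_All, the gene with the closest PDX1 hit, had 144 tags in FS, 301 in CS and 498 in CON. That is 12.1 TPM in FS (interval 10.2 to 14.2), 25.1 TPM in CS (22.3 to 28.1) and 43.1 TPM in CON (39.4 to 47.0). The levels formed a series in which FS was lowest, and none of the 3 intervals overlapped. It fell by 1.83 on the log2 scale in FS over CON (interval -2.11 to -1.56) and by 1.05 in FS over CS (-1.35 to -0.76). In CS over CON its log2 ratio was -0.78 (-0.99 to -0.57), under the smallest change of 2-fold that the authors listed.

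Both genes thus had lower counts under each stress, but in different proportions. The log2 ratio of Unigene47947_All minus that of Unigene30764_All was 0.79 in CS over CON (exact conditional interval 0.55 to 1.04), where Unigene47947_All changed less. The same difference was -0.40 in FS over CON (interval -0.70 to -0.10) and -1.19 in FS over CS (-1.52 to -0.86). Unigene30764_All was nearly alike in the stress libraries, while Unigene47947_All was lower in FS than in CS.

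The other 2 PDX genes had few sense tags. Unigene13335_All was higher in CS than in CON. The sense count of Unigene34060_All could be compared only between the stress libraries and was higher in FS. The antisense tag of Unigene34060_All was lower in FS than in CS, with a log2 ratio of -0.37. Unigene13335_All had 89 tags in CS and 27 in CON, 7.41 TPM (interval 5.95 to 9.12) against 2.33 TPM (1.54 to 3.40). Its log2 ratio of CS over CON was 1.67 (interval 1.03 to 2.35), and its FS count was not analysed here. Unigene34060_All had 45 tags in FS and 12 in CS, 3.78 TPM (interval 2.76 to 5.06) against 1.00 TPM (0.52 to 1.75). Its log2 ratio of FS over CS was 1.92 (interval 0.98 to 2.97), and its sense count in CON was not analysed here. The log2 ratio of CS over CON minus that of Unigene13335_All was -3.24 for Unigene30764_All (interval -3.93 to -2.59) and -2.44 for Unigene47947_All (-3.16 to -1.77). The log2 ratio of FS over CS minus that of Unigene34060_All was -1.78 for Unigene30764_All (-2.84 to -0.82) and -2.96 for Unigene47947_All (-4.06 to -1.97). With the pairs above, 7 differences between genes were computed.

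**Figure D2:**
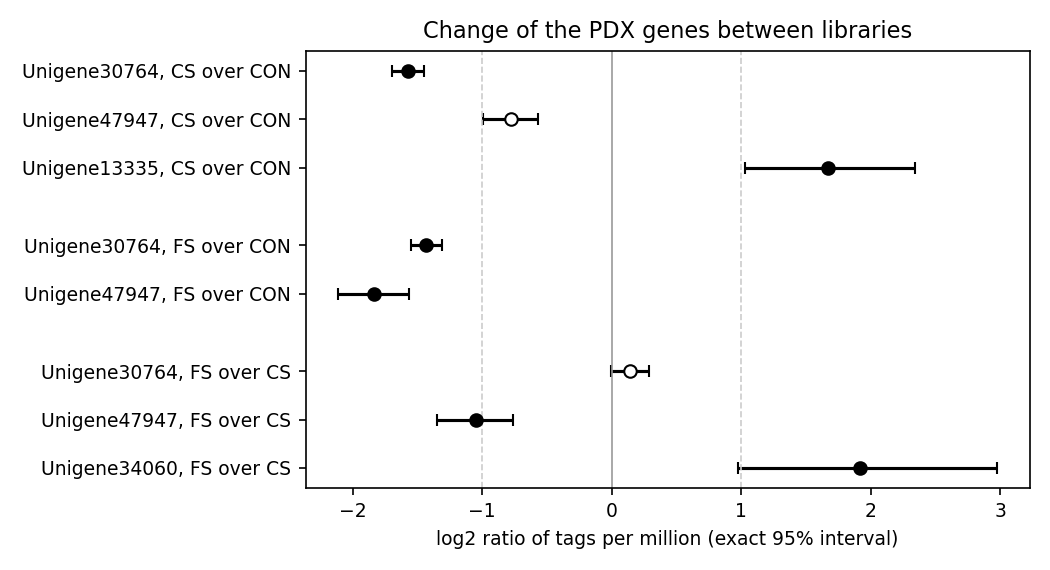
log2 ratio of sense tags in TPM for each PDX gene and pair of libraries, with exact 95% intervals. Filled points were listed by the authors, open points were not, and dashed lines mark a 2-fold change. Unigene30764_All and Unigene47947_All lie left of 0 against CON, while Unigene13335_All at 1.67 (CS over CON) and Unigene34060_All at 1.92 (FS over CS) lie right of it.

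Each gene table thus listed 2 of the 4 PDX genes. CS over CON held 1 up and 1 down, where the authors listed 53.0% of their genes as up and 47.0% as down. In FS over CON both were down, with 56.2% of all listed genes up and 43.8% down. In FS over CS 1 was up and 1 down, with 55.3% of all listed genes up and 44.7% down. Since genes that were not called are not in these tables, the shares are shares of called genes. With 2 genes in a table such counts cannot be told from the background.

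Within every library the order of the PDX sense levels was kept wherever counts were known. In FS it ran from Unigene30764_All over Unigene47947_All to Unigene34060_All, in CS from Unigene30764_All over Unigene47947_All and Unigene13335_All to Unigene34060_All, and in CON from Unigene30764_All over Unigene47947_All to Unigene13335_All. No neighbours in these orders had overlapping intervals.

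Apart from Unigene34060_All, the level of each gene rested mostly on 1 sense tag, that nearest to the 3′ end. The sense tag of Unigene30764_All held 771 of its tags in FS, 724 in CS and 2061 in CON, which left 28, 7 and 33 tags of the gene count outside it. The sites of these remaining tags were not tested. That of Unigene47947_All held 131 of 144 tags in FS, all 301 in CS and 485 of 498 in CON. The 13 other tags in FS and 13 in CON gave a log2 ratio of -0.042, so the fall was that of the main tag, whose log2 ratio was -1.93 (interval -2.22 to -1.65). The remaining tags of Unigene30764_All gave a log2 ratio of -0.28 in FS over CON, -2.29 in CS over CON and 2.01 in FS over CS. The single tag of Unigene13335_All was its whole count in both libraries. Of Unigene34060_All the listed sense tag held 30 of 45 tags in FS and 6 of 12 in CS.

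The antisense tag of Unigene34060_All was far more abundant than its sense tags, with a ratio of opposite sign in FS over CS. It had 1035 tags in FS, 1350 in CS and 2900 in CON, or 86.9, 112 and 251 TPM. Its log2 ratio was -1.53 in FS over CON (interval -1.63 to -1.43), -1.16 in CS over CON (-1.25 to -1.06) and -0.37 in FS over CS (-0.49 to -0.25). The tag was listed in the comparisons with CON, where 52.3% of the listed antisense tags were down in FS and 47.1% in CS. It was thus lowest in FS, intermediate in CS and highest in CON, as was the sense tag of Unigene47947_All with which it shares 19 bases.

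There were 23 antisense tags for each sense tag of Unigene34060_All in FS and 112.5 in CS. In FS over CS, 716 listed genes had an antisense tag. Over both libraries, an antisense tag exceeded the sense count in 358 of them (50%), and by more than 10 times in 69 (9.64%). The log2 ratio of FS over CS of the antisense tag minus that of the sense count was -2.29 (interval -3.35 to -1.34). With the antisense tag added to the sense count, a choice made after seeing the data, the log2 ratio of Unigene34060_All in FS over CS became -0.32 in place of 1.92. Against the sense tag of Unigene47947_All, the antisense tag's log2 ratio differed by -0.41 in CS over CON (interval -0.65 to -0.18), by 0.40 in FS over CON (0.10 to 0.71) and by 0.82 in FS over CS (0.49 to 1.15). The orientation of the reference sequence of Unigene34060_All was not tested. The sign of the gene's change in FS over CS depends on it, with 1.92 for the sense count and -0.37 for the antisense tag.

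The antisense tag of Unigene30764_All was rare, with 5 tags in CS and 30 in CON. Its log2 ratio of CS over CON was -2.64 (interval -4.36 to -1.26), in the same direction as the sense count. The difference between antisense and sense, -1.07, had an interval that includes 0 (-2.79 to 0.32).

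**Figure D3:**
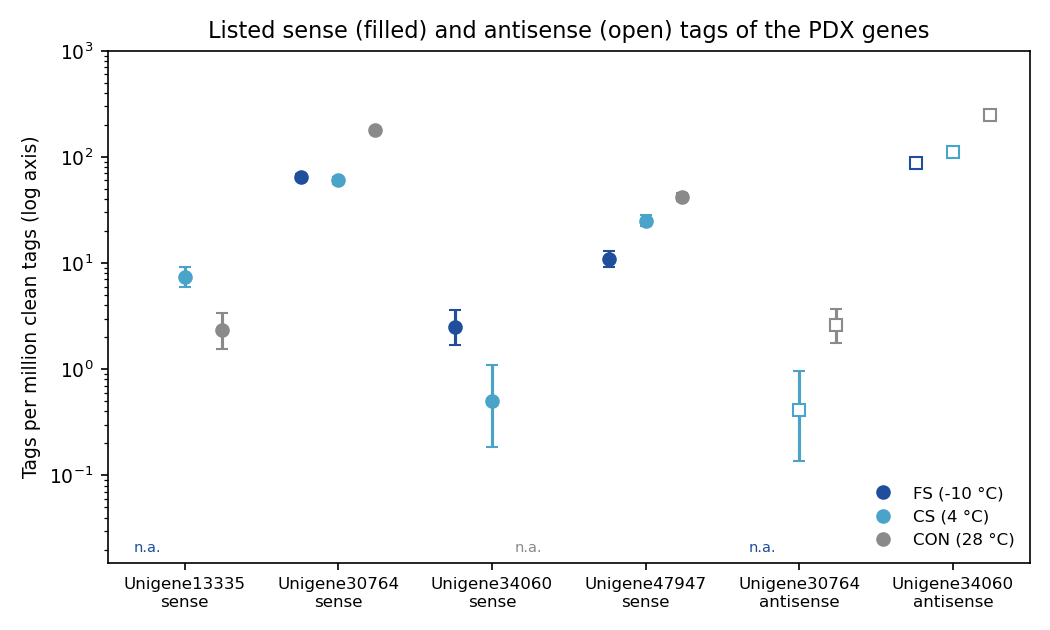
Level in TPM (log axis) of the 6 listed tags of the PDX genes in FS, CS and CON, sense tags filled and antisense tags open, with exact Poisson 95% intervals; n.a. marks a count not analysed here. The antisense tag of Unigene34060_All reaches 251 in CON and lies at 86.9 in FS and 112 in CS, while its sense tag has 30 tags in FS and 6 in CS.

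A further 6 listed genes carried a vitamin B6 name or GO term without being among the 4. Of these, 5 have the term pyridoxine metabolic process and best hits named only predicted protein of Populus trichocarpa, and 4 of the 5 share the same hit. Those 4 genes have the same GO terms as Unigene47947_All, Unigene30764_All and Unigene34060_All, so that 7 genes carry an identical set. The sixth, Unigene3369_All, has a glutamine amidotransferase subunit pdxT as best hit, the bacterial name of the PDX2 partner.

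Against CON, the more abundant genes with the shared Populus hit moved opposite to the 2 abundant PDX genes. Unigene53065_All had 518 tags in FS, 3342 in CS and 131 in CON, or 43.5, 278 and 11.3 TPM. Its log2 ratio was 4.62 in CS over CON (interval 4.37 to 4.88) and 1.94 in FS over CON (1.66 to 2.23). Its main matched sense tag alone gave 1.09 in FS over CON (interval 0.76 to 1.44), and 249 of the 518 tags in FS lay outside its listed sense tags. Unigene13299_All had 1196 tags in FS, 2527 in CS and 396 in CON, or 100.4, 210.4 and 34.2 TPM. Its log2 ratio was 2.62 in CS over CON (2.47 to 2.78) and 1.55 in FS over CON (1.39 to 1.72). Both were highest in CS and lowest in CON, and fell by 2.68 and 1.07 on the log2 scale in FS over CS.

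The remaining genes of this group were rare. Unigene12170_All had 15 tags in FS, 38 in CS and 0 in CON. With the 0 put at 3 tags (0.259 TPM), it was 4.86-fold higher in FS and 12.2-fold higher in CS than in CON. Such folds take the other counts as exact, and the exact Poisson upper limit of 0 tags in CON was 0.319 TPM. Unigene23369_All had 17 tags in CS and 0 in FS and CON, 5.46-fold higher in CS than in CON with the 0 put at 3 tags. Its antisense tag had 16 tags in FS, 52 in CS and 0 in CON. Unigene53958_All, whose further GO terms name an oxidoreductase acting on amino groups with oxygen as acceptor, had 23 tags in FS, 0 in CS and 2 in CON. Pyridoxamine phosphate oxidase, a salvage enzyme of the pathway, belongs to that class, but no listed gene was named for it or for pyridoxal kinase.

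**Figure D4:**
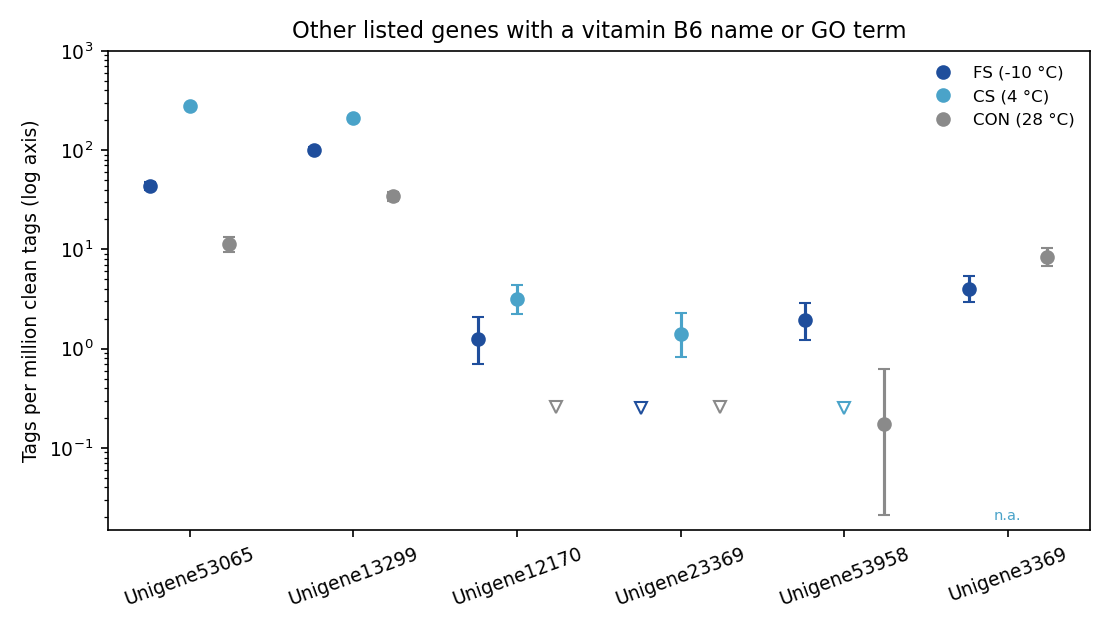
Level in TPM (log axis) of the 6 other genes with a vitamin B6 name or GO term in FS, CS and CON, with exact Poisson 95% intervals. Open triangles mark 0 tags, drawn at 3 tags, and n.a. a count not analysed here. Unigene53065_All and Unigene13299_All are highest in CS, at 278 and 210.4, and lowest in CON, at 11.3 and 34.2.

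In FS over CON the PDX2-type gene went the way of Unigene30764_All and Unigene47947_All. It went opposite to Unigene53065_All and Unigene13299_All, which carry the same GO terms as those and had log2 ratios of 1.94 and 1.55. Unigene3369_All had 48 tags in FS and 97 in CON, 4.03 TPM (interval 2.97 to 5.34) against 8.39 TPM (6.80 to 10.2). Its log2 ratio of FS over CON was -1.06 (interval -1.59 to -0.54), and its count in CS was not analysed here.

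By direction, 4 of these 6 genes were listed in CS over CON and all 4 were up, with a median log2 ratio of 3.11 where genes at 0 were put at 3 tags. The median over all listed genes was 1.08. In FS over CON 4 were up and 1 down, with a median of 1.94 against 1.18 over all listed genes. In FS over CS 1 was up and 3 down, with a median of -1.78 against 1.12. Of all listed genes 53.0% were up in CS over CON, 56.2% in FS over CON and 55.3% in FS over CS, and counts of so few genes cannot be told from these shares. Of 2 listed oleosin genes, markers of seed oil bodies chosen as signs of other tissue, both were also higher in CS: together they had 19.6 TPM in FS, 57.6 in CS and 24.0 in CON, and Unigene52166_All of the pair was at 0 in CON. Their part in these rises was not tested.

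Summed over the 7 vitamin B6 genes counted in every library, the pool was 226 TPM in FS, 579 TPM in CS and 269.8 TPM in CON. Unigene30764_All and Unigene47947_All held 35.0% of these tags in FS (exact binomial interval 33.2 to 36.8) and 14.8% in CS (14.0 to 15.7), against 83.1% in CON (81.7 to 84.4). The sum of both was 79.2 TPM in FS, 85.9 in CS and 224 in CON. That of the other 5 was 147 TPM in FS, 493 in CS and 45.7 in CON. In FS and CS most of this pool of listed genes thus lay in genes with a best hit named only predicted protein. In CON most of it lay in the named PDX genes. Of the former, 4 carry the same GO terms as the latter. The pool counts sense tags and leaves out Unigene34060_All, whose antisense tag had 1035 tags in FS, 1350 in CS and 2900 in CON. The 2 PDX genes in the pool had 943, 1032 and 2592 tags, so counting that tag would raise the PDX share. Genes enter the lists only past the authors' 2-fold limit, a choice that itself favours such shifts. Vitamin B6 genes that changed less are not in the pool, and the intervals cover counting error only.

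**Figure D5:**
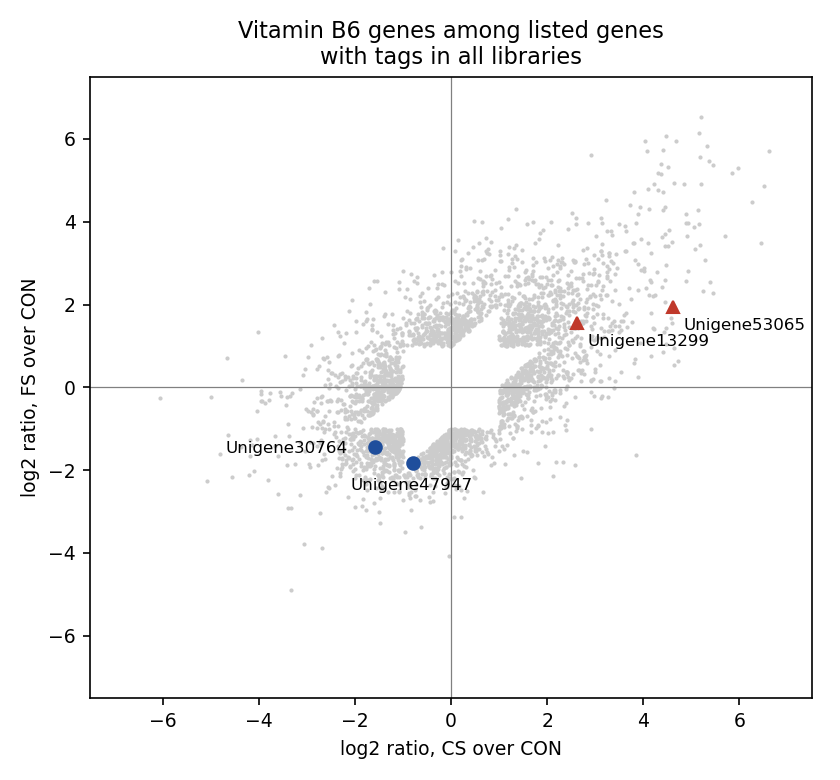
log2 ratio of CS over CON (horizontal) and of FS over CON (vertical) for listed genes with tags in all 3 libraries and at least 100 in sum (grey). Unigene30764_All and Unigene47947_All (blue circles) lie at lower left, and Unigene53065_All and Unigene13299_All (red triangles) at upper right; both axes share the CON library, and the empty centre reflects the 2-fold limit of the lists.

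The tags of the abundant genes with the Populus hit were also near copies of each other, and are shown with capitals where they differ.
Unigene13299_All, sense tag: catgtgcttTtggagacGagc
Unigene53065_All, inner sense tag: catgtgcttGtggagacTagc
Unigene13299_All, antisense tag: catgtggatcattgTagtgcc
Unigene53065_All, antisense tag: catgtggatcattgAagtgcc
The sense tags differ by T10G and G18T and the antisense tags by T15A alone. All 4 tags were highest in CS, with 2513, 219, 75 and 60 tags in CS against 394, 12, 16 and 3 in CON in the order shown. The outermost sense tag of Unigene53065_All, the one nearest to the 3′ end, had 235 tags in FS, 2226 in CS and 107 in CON. Its log2 ratio in FS over CS, -3.23 (interval -3.43 to -3.04), minus that of the rest of the gene count was -1.26 (interval -1.54 to -0.99). Tags counted for the same gene thus differed in the size of the fall. Most of that rest, 249 tags in FS and 897 in CS, lay outside the listed sense tags. The inner sense tag alone had a log2 ratio of -2.68 (interval -3.24 to -2.15).

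Among 3235 other genes counted in all libraries with at least 100 tags, the patterns nearest to the PDX genes were sought by Euclidean distance between the log2 ratios of CS and FS over CON. For Unigene47947_All these were Unigene31694_All at a distance of 0.018, Unigene1211_All at 0.070 and Unigene36780_All at 0.075, none with a named function. Unigene31694_All had 107 tags in FS, 227 in CS and 371 in CON. For Unigene30764_All these were Unigene43537_All, a putative beta-glucosidase of Ricinus communis by its best hit, at 0.037, Unigene42714_All at 0.040 and Unigene32265_All at 0.057. Unigene43537_All had 163 tags in FS, 144 in CS and 418 in CON. With 3 libraries such a likeness rests on 2 ratios.

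Genes for the supply of substrates, chosen by keyword, were few. Glutamine synthetase provides the glutamine from which PDX2 takes ammonia, and triosephosphate isomerase interconverts the triose phosphates. The glutamine synthetase gene Unigene115128_All had 767 tags in FS, 314 in CS and 614 in CON, a log2 ratio of -1.02 in CS over CON (interval -1.22 to -0.82) and 1.30 in FS over CS (1.11 to 1.49). A further glutamine synthetase gene, Unigene56143_All, had 79 tags in FS, 70 in CS and 181 in CON, low in both stress libraries as Unigene30764_All was. Of the triosephosphate isomerase genes, Unigene97581_All had 13 tags in CS and 42 in CON, and Unigene34405_All had 84 in FS, 27 in CS and 34 in CON. In CS over CON 3 of these 4 genes were listed, all down, in FS over CON 1 up and 1 down, and in FS over CS 2 up. Of all listed genes 47.0% were down in CS over CON and 55.3% up in FS over CS, and counts of so few genes cannot be told from these shares.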

How the data were processed

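DeepSAGE tags of leaf RNA were analysed in 3 libraries, FS, CS and CON, assigned by their GEO labels. The authors removed tags seen fewer than 2 times and mapped clean 21-base tags with at most 1 mismatch; Bowtie 0.12.3 is named in the submitters' processing notes. Each deposited count is a number of clean tags, either of a distinct tag or summed over a gene's unambiguous tags. From these the authors computed TPM, which scales a count to the clean tags of its library. The authors' log2 ratios, and the p-values and FDR of their own test, were deposited for each comparison and not used. Genes and tags that did not pass that test are not in the tables used.

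Clean tag totals implied by counts and TPM were 11908614 in FS, 12010122 in CS and 11566379 in CON. In the same order 1 tag is 0.0840, 0.0833 and 0.0865 TPM. For fold values a count of 0 was put at 3 tags. Log2 ratios were computed from counts and totals, with exact Clopper-Pearson 95% intervals. Differences of log2 ratios were taken as conditional odds ratios with exact intervals, and no test between conditions was made. The code for intervals recovered known values in simulated Poisson counts. Such a check concerns the code only, since the intervals assume counts of this kind. Calculations ran in Python 3.11.15 with scipy 1.17.1, numpy 2.4.6 and pandas 2.3.3, and plots in matplotlib 3.10.9.

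The members and the lists were chosen with earlier results of these data known. Named were the 4 genes, all listed genes with a vitamin B6 name or term, all substrate genes, the 3 nearest patterns, and in each comparison the 2 largest rises and falls of pyridoxal phosphate enzymes whose lower library held 10 tags or more. Alternatives were other scalings, 0.5 added tags, the main tag alone or left out, antisense tags added, and limits on tags and E-values. No genome was used.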

Additional observations from a re-analysis of the deposited data

Results flagged for a closer look

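A tag that the authors marked as matching no gene was far above its CON level in both stress libraries. It differs by C17A from the outermost sense tag of Unigene53065_All, one of the genes with a pyridoxine term, and is shown with that position in capitals.
Unmatched tag: catgtctgtctctgatAtttg
It had 249 tags in FS, 891 in CS and 12 in CON, a log2 ratio of 6.16 in CS over CON (exact 95% interval 5.35 to 7.12). The count of Unigene53065_All exceeded the sum of its listed sense tags by 249 in FS, 897 in CS and 12 in CON. These excesses equal the counts of the unmatched tag in FS and CON and nearly so in CS. Whether the gene count holds this tag was not tested. In CS over CON the log2 ratio of the unmatched tag was 1.84 above that of the matched one (interval 0.96 to 2.84), and in FS over CS 1.40 above (1.12 to 1.69). No listed tag lay 1 base from a tag of the 4 PDX genes (0 of 30829).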

How the results depend on the processing

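Over 8 ratios of the PDX genes, 36 of 37 values under the alternatives kept their sign, and 28 lay inside the interval. Median-of-ratios size factors over listed genes shifted every log2 ratio by -0.37 in CS over CON, -0.52 in FS over CON and -0.16 in FS over CS. With them Unigene47947_All stood at -1.15 in CS over CON and -2.35 in FS over CON. Unigene30764_All stood at -1.94 in CS over CON, -1.95 in FS over CON and -0.015 in FS over CS, the ratio that changed sign. Without the main sense tag Unigene30764_All stood at -2.29, -0.28 and 2.01 in the same order and Unigene47947_All at -0.042 in FS over CON, on few tags. With antisense tags, added after seeing the data, Unigene34060_All stood at -0.32 in FS over CS. With E-values of at most 1e-20, 0 PDX genes were up in CS over CON. With tags in both libraries 2 of the other vitamin B6 genes were up in CS over CON and 0 in FS over CS. Where 30 tags or more were asked of the higher library, 2 were up in FS over CON and 0 in FS over CS. The clean tag totals that the study states are those used, so that alternative was not run separately. No paired analysis was possible because each condition had 1 library. Depth limits the rare genes most: Unigene34060_All rests on 12 tags in CS and Unigene13335_All on 27 in CON.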

Other observations

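Genes found by a name or GO term of enzymes that use pyridoxal phosphate numbered 25 among the listed genes. Not every best hit names such an enzyme. That of Unigene32569_All, counted as up in both comparisons of FS, is a putative gcn4-complementing protein. In CS over CON 6 were up and 6 down, with a median log2 ratio of 0.45 against 1.08 over all listed genes. In FS over CON 11 were up and 3 down (median 1.80 against 1.18), and in FS over CS 12 were up and 2 down (median 1.81 against 1.12). Since 56.2% and 55.3% of all listed genes were up in those comparisons, the counts are given as a description.

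Named here are the enzymes with the largest changes in each comparison among those with at least 10 tags in both libraries. Unigene43627_All, a tryptophan decarboxylase by its best hit, had 241 tags in CS and 43 in CON, a log2 ratio of 2.43 (exact 95% interval 1.96 to 2.94). Unigene22030_All, of the aminotransferase family, had 31 tags in FS, 87 in CS and 21 in CON. Unigene45918_All, an O-acetylserine(thiol)-lyase that makes cysteine, had 90 tags in FS and 15 in CON, a log2 ratio of 2.54 (1.75 to 3.44). Unigene25845_All, a branched-chain aminotransferase by its best hit, had 2777 tags in FS and 634 in CON, a log2 ratio of 2.09 (1.96 to 2.22). Between the stresses, the mitochondrial serine hydroxymethyltransferase Unigene82086_All had 57 tags in FS and 10 in CS, and the aminotransferase Unigene11418_All had 89 in FS and 22 in CS. Unigene116018_All, the photorespiratory serine-glyoxylate aminotransferase, had 17 tags in CS and 69 in CON. Unigene33506_All, a hypothetical protein with such a GO term, had 98 tags in FS, 80 in CS and 250 in CON. Unigene44083_All, a synthase of the ethylene precursor 1-aminocyclopropane-1-carboxylate (ACC), had 226 tags in FS and 506 in CON. Other ACC synthase genes, chosen after their values were seen, differed from it in direction. Unigene89056_All had 0 tags in FS, 135 in CS and 0 in CON, 43.3-fold higher in CS than in CON with the 0 put at 3 tags. Unigene7810_All had 29 tags in FS and 5 in CON, a log2 ratio of 2.49 (1.11 to 4.22).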
